A study of Homo sapiens with 24 samples.

Results

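The immediate-early genes FOS, FOSB, FOSL1, JUN, JUNB, EGR1, ARC, IER2, IER3 and GADD45B were followed in HEK293T cells kept at 21% or 1% oxygen, in WT and in lines labelled as knockouts of MIR210 or of its host gene. These 10 genes were taken by name from the 58735 genes of the deposited count tables, and all 10 were found and tested among 19952 genes. HEK293T is an established human embryonic kidney cell line. MIR210 gives rise to a microRNA, miR-210, and sits in MIR210HG, a host gene whose transcript is non-coding. The 6 groups were WT at 21% oxygen for 24 h (normoxia), MIR210-KO in normoxia, MIR210HG-KO in normoxia, WT at 1% oxygen for 24 h (hypoxia), MIR210-KO in hypoxia and MIR210HG-KO in hypoxia, with 4 libraries each. Sample titles write the last genotype as 210HG-KO. All groups shared high-glucose DMEM with 10% heat-inactivated fetal bovine serum. Whether a knockout was 1 clone or a pool is not stated in the labels, nor whether the 4 libraries of a group came from separate cultures, so p-values measure only the spread between these libraries, which may be technical.

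Immediate-early genes are transcribed within minutes of a stimulus, without new protein synthesis, and most of their messenger RNAs are short-lived. FOS and JUN family proteins pair to form the transcription factor AP-1, and EGR1 is a zinc-finger transcription factor. Serum response factor with its ternary complex partners (bound at CArG boxes), CREB-type factors (bound at TGACG) and ERK, JNK and p38 kinases are the classical routes to their promoters. Low oxygen is known to stabilise hypoxia-inducible factors, which induce MIR210 among many other genes.

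The promoter stretches below are printed for their matches to TGACG and the CArG box, motifs classically tied to cAMP, calcium and growth factor signals. Whether a printed match is the element that acts in its gene was not tested. Promoters from 250 bases before to 50 after the start were taken from RefSeq (GRCh38.p14), which held 7 of the 10 members: FOS, FOSB, JUN, JUNB, EGR1, IER2 and GADD45B. Both strands were searched. TGACG, the half-site of the cAMP response element, was present in 6 of these 7 (all but GADD45B), against 24.5% of 35093 promoters of the same length. The full element TGACGTCA, which contains it, was in 0 of 7 and in 1.85% of all promoters. A CArG box was found in 1 of 7, EGR1, with a pair of boxes, and in 1.29% of all. The core hypoxia element, ACGTG or GCGTG, was in 7 of 7 and in 48.4% of all, TGANTCA (the AP-1 site) in 0 of 7 and 7.71%, GCGGGGGCG or GCGTGGGCG (the EGR1 site) in 1 of 7 (GADD45B) and 5.76%, and TATAAA in 4 of 7 and 11.5%. TGACG can share bases with the core hypoxia element. A match describes letters in this window and is no binding site. Elements further than 250 bases before the start lie outside the window and could not be found. Capitals mark TGACG (or CGTCA where it lies on the opposite strand), or the CArG box in the EGR1 stretches so named.
FOS, chr14:75278751-75278780, plus strand: gtggttgagcccgTGACGtttacactcatt
FOSB, chr19:45467923-45467952, plus strand: agcaaggggcgggTGACGtaagcagggggg
JUN, chr1:58784154-58784183, minus strand: ggagtctccatggTGACGggcgggcccgcc
JUNB, chr19:12791336-12791365, plus strand: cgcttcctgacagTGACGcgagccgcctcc
EGR1, CArG box, chr5:138465364-138465393, plus strand: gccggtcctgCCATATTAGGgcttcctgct
EGR1, CArG box, chr5:138465386-138465415, plus strand: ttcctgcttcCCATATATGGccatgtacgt
EGR1, chr5:138465400-138465429, plus strand: atatggccatgtaCGTCAcgacggaggcgg
IER2, chr19:13150258-13150287, plus strand: ccacccccgccccCGTCAcgccaccatcga

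The microRNA that the MIR210-KO label names is printed because a direct target commonly carries a match to its seed. Its mature form from RefSeq (GRCh38.p14, chr11:568112-568133, minus strand), with the seed (bases 2 to 8) in capitals, is:
miR-210-3p: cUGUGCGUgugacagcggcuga
The match ACGCACAA, and either run of 7 bases within it, was searched in the longest annotated 3' UTR of each gene (GENCODE 29). None of the 10 members held one (0 of 10), against 734 of 19128 genes (3.84%). With so low a share over all genes, 0 of 10 does not set the members apart. Shorter matches and sites outside the 3' UTR were not searched.

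Library totals ran from 25556776 to 37858947 counts. MIR210HG had 0 counts in all 8 MIR210HG-KO libraries, and stood at 5.70 ± 0.647 CPM (read counts scaled to library size, SD over 4 libraries) in normoxia WT and 19.1 ± 1.72 in hypoxia WT. In normoxia MIR210-KO it stood at 3.48 ± 1.07 CPM, lower than in WT (log2 fold change -0.71, adjusted p = 0.00044). In hypoxia MIR210-KO it stood at 20.7 ± 1.46 CPM and was not called against WT (0.12, adjusted p = 0.406). Its rise with hypoxia was larger in MIR210-KO than in WT (difference 0.83, adjusted p = 0.00208). The MIR210 row held 6 to 11 counts in the hypoxia MIR210-KO libraries and 2 to 14 in hypoxia WT (33 and 30 in total), 0 to 1 and 0 to 2 in normoxia, and 0 in all 8 MIR210HG-KO libraries. Messenger RNA sequencing does not measure mature miR-210 and the position of the edit is not given in the sources used here, so this row does not check the MIR210-KO label. Of the kidney-line markers, VIM stood at 159 to 449 CPM, NEFM at 34.2 to 290 and PAX2 at 1.64 to 6.94. Of markers of blood, endothelium and fibroblasts, PTPRC, CD3E, HBB, PECAM1, CDH5 and VWF reached at most 0.21 CPM, DCN, KDR, CD14 and LUM at most 1.52, and COL1A1 stood at 13.8 to 33.5 and COL3A1 at 1.5 to 16.2; the part of the collagen genes in any result was not tested. Hypoxia WT 1 and 3, hypoxia MIR210-KO 1 and normoxia MIR210HG-KO 3 were taken as standing apart from the rest of their groups. They were chosen with earlier results of these data known. Calls of members that changed without these 4 libraries are given. Long genes relative to short genes measured 1.32 and 1.22 (log2) in hypoxia WT 1 and 3, against 1.73 and 1.62 in WT 2 and 4. Hypoxia MIR210-KO 1 measured 1.35 against 1.55 to 1.61 in its group. Normoxia MIR210HG-KO 3, at 1.1 against 1.1 to 1.18, did not differ by this measure. Normoxia MIR210-KO 3, which is not among the 4, measured 0.974 against 1.1 to 1.16. Over all libraries this balance was 0.974 to 1.2 in normoxia and 1.22 to 1.73 in hypoxia, so that it moved with oxygen. A fit with it as a covariate is given where it changed the call of a member. Each oxygen level has its own table, so oxygen level and table cannot be told apart. In bulk RNA, fewer cells of a kind and less RNA per cell cannot be told apart either.

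Hypoxia raised nearly the whole set in WT and fewer of its members in either knockout, though how many fewer depended on whether the long-to-short balance was a covariate. In WT, 9 of 10 members were higher in hypoxia and 0 lower, where 29.6% of all genes tested were called higher and 30.7% lower (60.3% in either direction), with a median log2 fold change of 1.83 over the members and 0 over all genes. FOS rose most, 16.2-fold, followed by ARC (4.61-fold), IER3 (4.09-fold), GADD45B (3.98-fold), EGR1 (3.77-fold), JUN (3.33-fold), FOSB (2.85-fold) and JUNB (2.42-fold). IER2 rose 1.18-fold, and FOSL1 was not called, at 0.45 ± 0.39 (log2 fold change ± standard error, the form used from here on). In MIR210-KO, 5 members were higher and 2 lower, where 29.3% of all genes were higher and 29.5% lower (58.7% in all), with a median of 0.28. In MIR210HG-KO, 5 were higher and 0 lower, where 25.7% of all genes were higher and 28.3% lower (54.1% in all), with a median of 0.44. With that balance as a covariate, hypoxia raised 9 members in WT, 6 with the MIR210-KO genotype and 8 with MIR210HG-KO, and lowered 0 in any genotype. Without the 4 libraries taken as standing apart, hypoxia raised 8 members in WT. The libraries of the 2 oxygen levels did not overlap for 9, 7 and 5 members in WT, MIR210-KO and MIR210HG-KO, nor for 53.2%, 54.1% and 46.4% of all genes tested, so that in MIR210HG-KO the members stood close to the share of all genes.

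**Figure D1:**
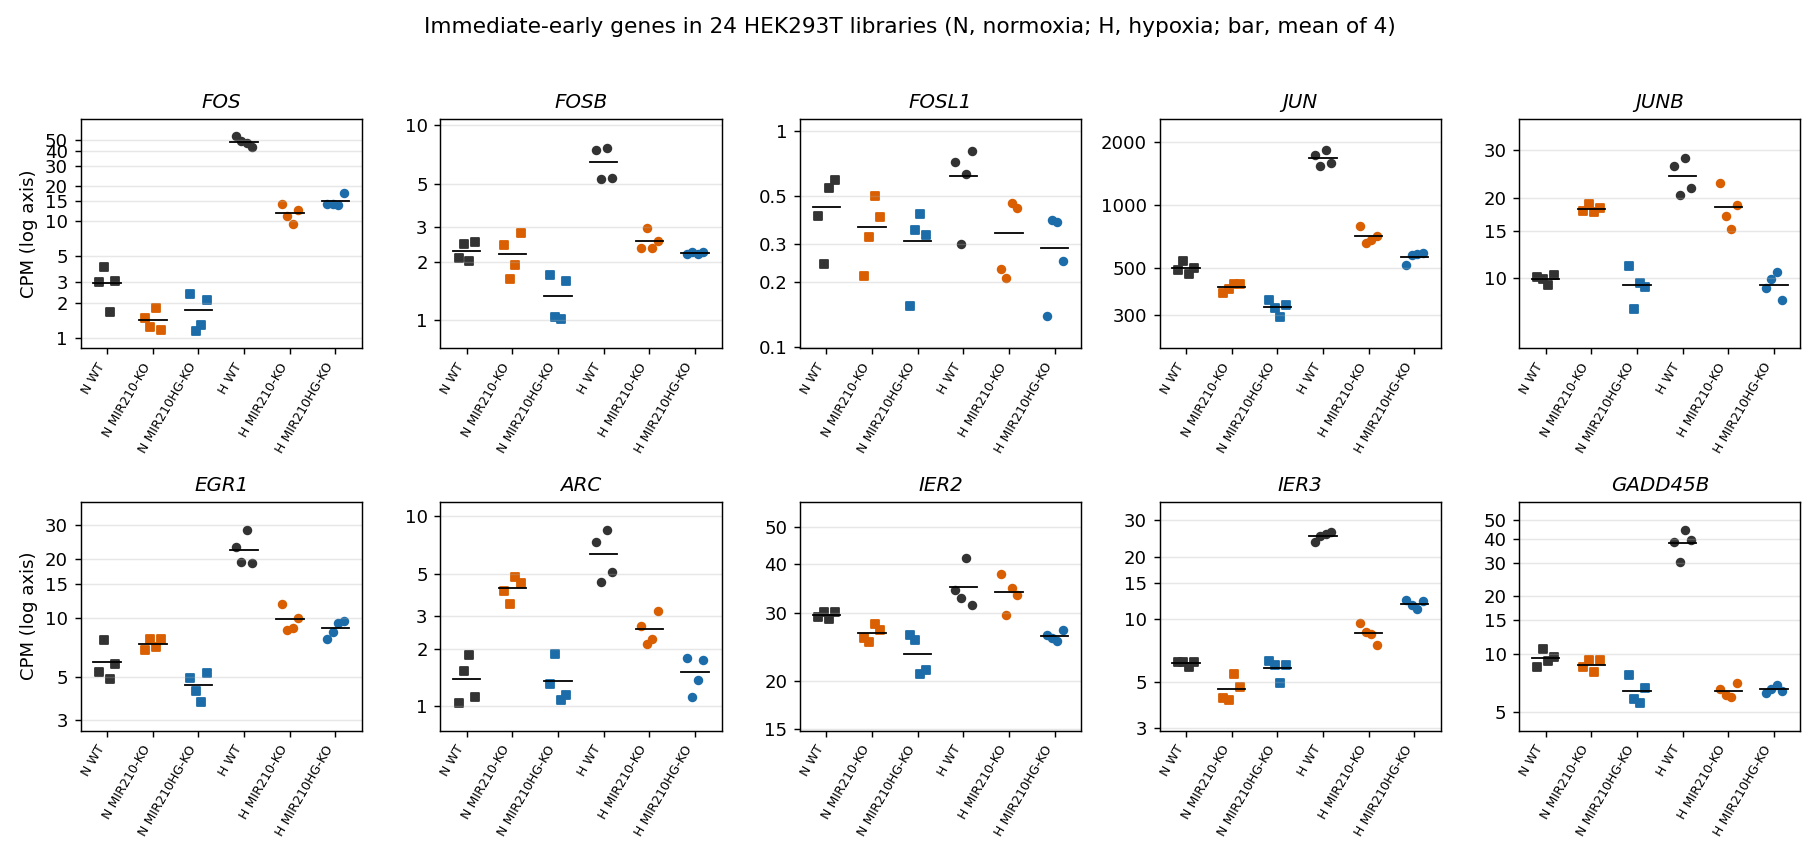
CPM of each immediate-early gene in the 24 libraries (log axis, its range differs by panel); squares are normoxia, circles hypoxia, horizontal bars the mean of 4 libraries, and colours the genotypes. Hypoxia WT holds the highest mean in all 10 panels, and its 4 points overlap no other group for FOS, FOSB, JUN, EGR1, IER3 and GADD45B.

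The oxygen response itself differed between WT and the knockouts. A lower response means a log2 fold change below that of WT, whether a weaker rise, a fall or a deeper fall. For 8 of 10 members the response of MIR210-KO was lower than that of WT (14% of all genes were called lower in this contrast and 12.5% higher, 26.5% in all), and for 8 of 10 that of MIR210HG-KO was lower (12.2% lower, 10.2% higher, 22.5% in all). Both contrasts use the same WT libraries, so they are not independent of each other. The members called were FOS, FOSB, JUN, JUNB, EGR1, ARC, IER3 and GADD45B in each contrast. IER2 (0.11 ± 0.11 for MIR210-KO, -0.09 ± 0.12 for MIR210HG-KO) and FOSL1 (-0.56 and -0.57) were not called. The median difference over the members was -1.2 for MIR210-KO and -0.94 for MIR210HG-KO, against 0.02 and 0.01 over all genes. Of the members called, ARC (-0.72) and GADD45B (-0.46) fell with hypoxia in MIR210-KO, though neither fall was called with the long-to-short covariate. With that covariate the members with a lower response were 8 in MIR210-KO and 7 in MIR210HG-KO.

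**Figure D2:**
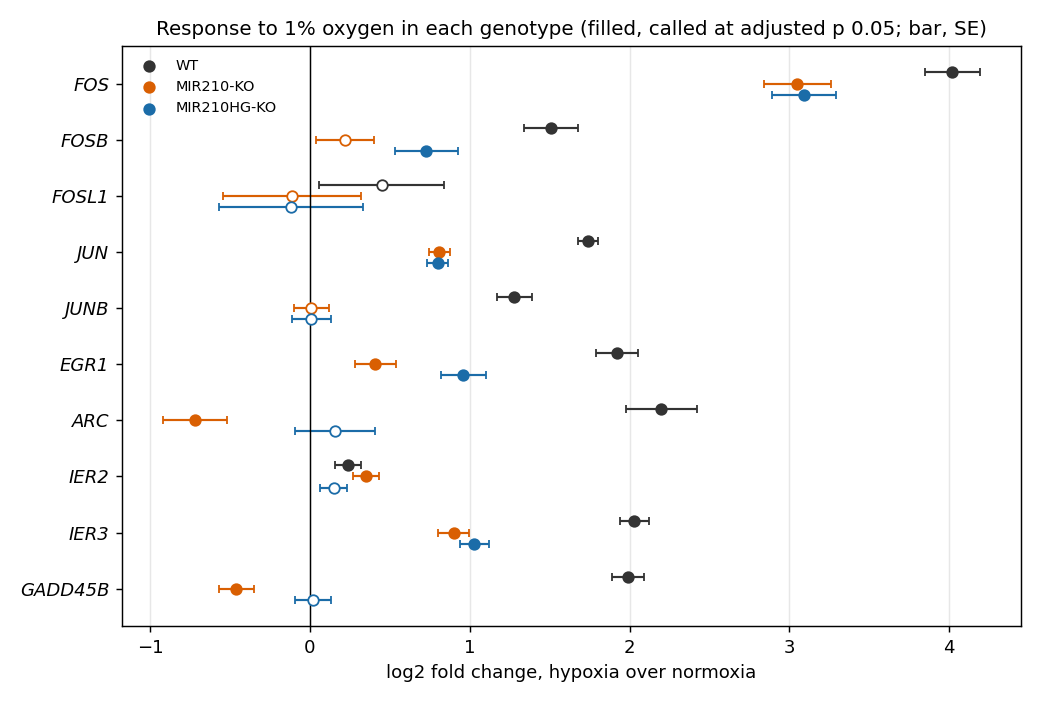
Log2 fold change of hypoxia over normoxia for each immediate-early gene in WT, MIR210-KO and MIR210HG-KO; bars are standard errors and filled points were called at an adjusted p of 0.05. WT lies to the right of both knockouts for every gene but IER2, and ARC (-0.72) and GADD45B (-0.46) are the filled points below 0, both in MIR210-KO.

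Set against WT at the same oxygen level, more members were lower in the knockouts in hypoxia than in normoxia. In hypoxia, 8 of 10 members were lower in MIR210-KO and 0 higher, where 27.7% of all genes were lower and 28.2% higher (55.9% in all), with a median of -1.27. In MIR210HG-KO all 10 were lower and 0 higher, where 30.2% of all genes were lower and 24.4% higher (54.6% in all), with a median of -1.44. The libraries did not overlap WT for 7 members in MIR210-KO and 9 in MIR210HG-KO, where 45.1% and 45% of all genes did not. In normoxia, MIR210-KO had 3 members lower and 2 higher, where 21.6% of all genes were lower and 22.6% higher (44.2% in all), with a median of -0.14, and MIR210HG-KO 6 lower and 0 higher, where 19.6% of all genes were lower and 15.6% higher (35.2% in all), with a median of -0.45. The members' counts in normoxia MIR210-KO were thus close to the background, and those in hypoxia were above it.

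**Figure D3:**
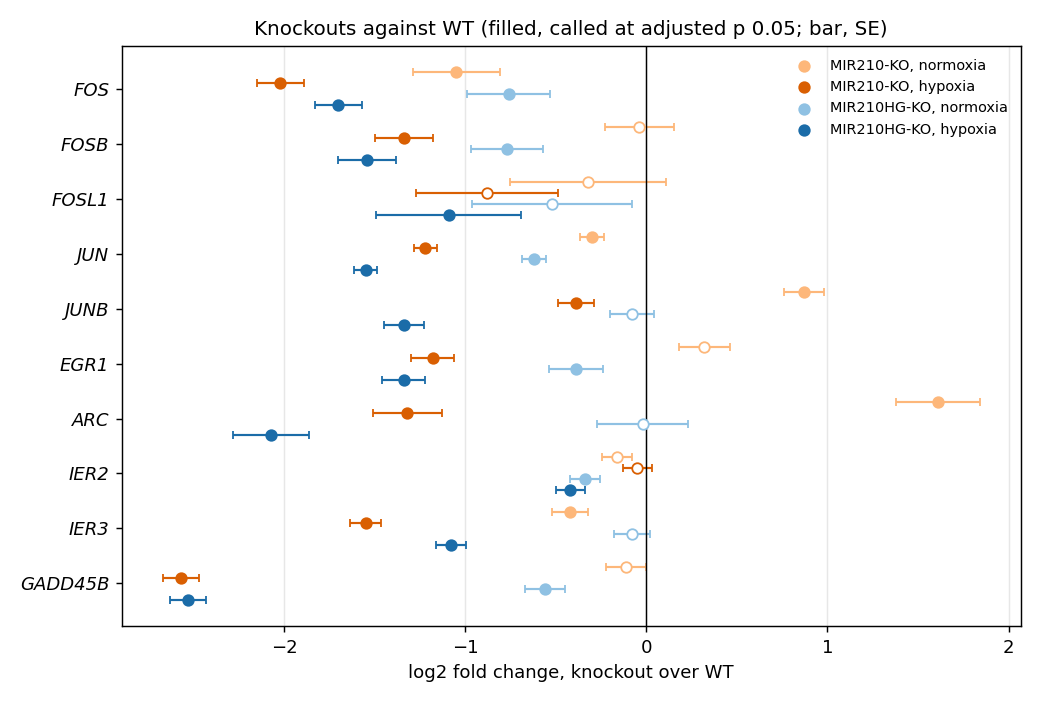
Log2 fold change of each knockout over WT in normoxia (pale) and hypoxia (dark); bars are standard errors and filled points were called at an adjusted p of 0.05. The hypoxia points lie between -2.57 and -0.05 and the normoxia points between -1.05 and 1.61, with ARC and JUNB of MIR210-KO the filled points to the right of 0.

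JUN (chr1:58780788-58784327, minus strand, GRCh38), the main DNA-binding partner of AP-1, was by far the most abundant member: it made up 84.7% to 89% of the summed CPM of the 10 genes in each group, and per kilobase of gene it ranked from 41st (hypoxia WT) to 351st (normoxia MIR210HG-KO) among protein-coding genes. In normoxia, JUN stood at 492, 540, 472 and 500 CPM in WT, 383, 401, 421 and 423 in MIR210-KO and 355, 323, 293 and 335 in MIR210HG-KO. In hypoxia the JUN values were 1730, 1540, 1830 and 1590 CPM in WT, 799, 663, 683 and 717 in MIR210-KO and 518, 581, 585 and 591 in MIR210HG-KO. All 4 hypoxia WT libraries lay above every other library, and hypoxia WT 1 and 3 were the higher pair. The rise with hypoxia was 1.74 ± 0.065 in WT (adjusted p = 8.01e-20), 0.81 ± 0.066 in MIR210-KO and 0.80 ± 0.066 in MIR210HG-KO. The knockouts' responses differed from that of WT by -0.92 ± 0.093 (adjusted p = 5.62e-09) and -0.94 ± 0.093 (adjusted p = 8.91e-09). In hypoxia JUN was lower than in WT by -1.22 ± 0.065 in MIR210-KO and -1.55 ± 0.065 in MIR210HG-KO. It was also lower in normoxia, by -0.30 ± 0.066 and -0.62 ± 0.066. In order of mean level, hypoxia WT was followed by hypoxia MIR210-KO, hypoxia MIR210HG-KO, normoxia WT, normoxia MIR210-KO and normoxia MIR210HG-KO, and the only neighbours whose libraries overlapped were hypoxia MIR210HG-KO and normoxia WT.

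JUNB (chr19:12791496-12793315, plus strand), a JUN family member with weaker transactivation that often acts against JUN, rose with hypoxia in WT and was called in neither knockout. In normoxia, JUNB stood at 10.1, 9.95, 9.4 and 10.3 CPM in WT, 17.8, 18.9, 17.7 and 18.3 in MIR210-KO and 11.1, 7.68, 9.62 and 9.26 in MIR210HG-KO. In hypoxia the JUNB values were 26.2, 20.5, 28 and 21.7 CPM in WT, 22.6, 17, 15.2 and 18.7 in MIR210-KO and 9.15, 9.96, 10.5 and 8.26 in MIR210HG-KO. In MIR210-KO it was already high at 21% oxygen, with no overlap with WT, and its hypoxia libraries overlapped those of normoxia. The WT response was 1.28 ± 0.11, against 0.01 ± 0.11 in MIR210-KO and 0.01 ± 0.12 in MIR210HG-KO (adjusted p = 0.921 and 0.964). The response differed from that of WT by -1.26 ± 0.15 and -1.27 ± 0.16. In normoxia MIR210-KO exceeded WT by 0.87 ± 0.11 (adjusted p = 1.38e-07), while MIR210HG-KO did not pass the test at -0.08 ± 0.12. In hypoxia the levels therefore parted, and JUNB stood at -0.39 ± 0.10 against WT in MIR210-KO and at -1.34 ± 0.11 in MIR210HG-KO. With the long-to-short gene balance as a covariate, JUNB rose in MIR210-KO (0.41, adjusted p = 0.0108) and in MIR210HG-KO (0.46, adjusted p = 0.0145). JUNB lies within HOOK2 on the opposite strand, and the strand setting of the counting is not given in the sources used here, so its counts are uncertain. HOOK2 itself stood at 0.12 ± 0.088 for hypoxia in WT and -0.19 ± 0.09 for MIR210-KO over WT in normoxia, neither of which passed the test. In hypoxia MIR210-KO held less HOOK2 than WT (-0.28 ± 0.087, adjusted p = 0.00633), where JUNB was lower too. Between the knockouts it was higher in MIR210HG-KO in normoxia (0.33 ± 0.09, adjusted p = 0.00307) and in hypoxia (0.21 ± 0.088, adjusted p = 0.0412), while JUNB was lower there at both levels.

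FOS (chr14:75278774-75282230, plus strand), the prototype immediate-early gene, was scarce in normoxia and gave the widest response of the set. In normoxia, FOS stood at 3, 4.09, 1.66 and 3.08 CPM in WT, 1.48, 1.25, 1.8 and 1.16 in MIR210-KO and 2.39, 1.15, 1.3 and 2.13 in MIR210HG-KO. In hypoxia the FOS values were 53.6, 48.7, 46.9 and 43 CPM in WT, 14.1, 11.1, 9.44 and 12.6 in MIR210-KO and 14, 14.1, 13.9 and 17.5 in MIR210HG-KO. Every hypoxia library lay above every normoxia library, and hypoxia WT lay above both knockouts without overlap. In WT the response was 4.02 ± 0.17 (adjusted p = 1.69e-19), and only 20 of the 19952 genes tested had a larger log2 fold change. FOS rose in the knockouts too, by 3.05 ± 0.21 in MIR210-KO and 3.09 ± 0.20 in MIR210HG-KO, which was 8.29-fold and 8.52-fold. The differences from the WT response were -0.97 ± 0.27 (adjusted p = 0.00838) and -0.93 ± 0.26 (adjusted p = 0.00989), and the second lost its call without normoxia MIR210HG-KO 1 (-0.75, adjusted p = 0.0601). In hypoxia FOS stood at -2.02 ± 0.13 against WT in MIR210-KO and -1.70 ± 0.13 in MIR210HG-KO. In normoxia it was also lower, by -1.05 ± 0.24 (adjusted p = 0.000359) and -0.76 ± 0.23 (adjusted p = 0.00725), though the libraries overlapped, and the second call was lost without normoxia WT 2 (-0.57, adjusted p = 0.0604). JUN exceeded FOS per kilobase 155-fold in normoxia WT and 31.8-fold in hypoxia WT.

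FOSB (chr19:45467995-45475179, plus strand), a further FOS family partner of JUN, was low in every group. In normoxia, FOSB stood at 2.09, 2.45, 2.01 and 2.52 CPM in WT, 2.44, 1.62, 1.92 and 2.8 in MIR210-KO and 1.7, 1.04, 1.01 and 1.6 in MIR210HG-KO. In hypoxia the FOSB values were 7.5, 5.31, 7.68 and 5.39 CPM in WT, 2.34, 2.96, 2.36 and 2.55 in MIR210-KO and 2.18, 2.24, 2.2 and 2.24 in MIR210HG-KO. Hypoxia WT lay above all other groups, with WT 1 and 3 the higher pair, and the other 5 groups overlapped their neighbours in level. The WT response was 1.51 ± 0.17 (adjusted p = 2.32e-09), or 1.24 without the 4 libraries taken as standing apart. It was 0.22 ± 0.18 in MIR210-KO, which did not pass the test, and 0.73 ± 0.20 in MIR210HG-KO, which did. With the long-to-short covariate these values were 0.5 (adjusted p = 0.104) and 1.06 (adjusted p = 0.00332). The difference from WT was -1.29 ± 0.25 for MIR210-KO (-0.98 without the 4 libraries). For MIR210HG-KO it was -0.78 ± 0.26 (adjusted p = 0.0292), and this call was lost without the 4 libraries (-0.62, adjusted p = 0.0912), with the long-to-short covariate (-0.66, adjusted p = 0.0623) and without any one of 6 libraries: normoxia WT 1 or 3, normoxia MIR210HG-KO 1 or 4, and hypoxia WT 1 or 3 (-0.74 to -0.65). In hypoxia FOSB stood at -1.34 ± 0.16 and -1.54 ± 0.16 against WT (-1.02 and -1.27 without the 4 libraries), and in normoxia at -0.77 ± 0.20 in MIR210HG-KO. FOSB lies within ERCC1 on the opposite strand, a DNA repair gene that averaged 954 counts per library, so with the strand setting unknown its counts are uncertain. ERCC1 stood at -0.10 ± 0.084 for hypoxia in WT, which did not pass the test, and at -0.23 ± 0.084 for MIR210-KO over WT in hypoxia, which did.

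FOSL1 (chr11:65892049-65900573, minus strand), which encodes the FOS relative FRA-1, was at the limit of detection, with 4 to 30 counts per library and 286 in all. Its group means ran from 0.287 CPM (hypoxia MIR210HG-KO) to 0.615 CPM (hypoxia WT), and every pair of neighbours in that order overlapped. It passed the low-count filter through 13 libraries, 3 of them hypoxia WT. The 1 call was in hypoxia MIR210HG-KO against WT (-1.09 ± 0.40, adjusted p = 0.0204), and it was lost without the 4 libraries (-0.94, adjusted p = 0.108), with the long-to-short covariate (-0.96, adjusted p = 0.0567), or without any one of hypoxia WT 1, hypoxia WT 4, hypoxia MIR210HG-KO 1 or hypoxia MIR210HG-KO 4 (-1.03 to -0.84). The next nearest was hypoxia MIR210-KO against WT (-0.88 ± 0.39, adjusted p = 0.0517), called with RLE factors and without hypoxia WT 2, hypoxia MIR210-KO 3, hypoxia MIR210-KO 4 or hypoxia MIR210HG-KO 1. At this depth no other difference in FOSL1 was detectable.

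EGR1 (chr5:138465490-138469315, plus strand), whose promoter carries the pair of CArG boxes printed above, rose in all 3 genotypes. In normoxia, EGR1 stood at 5.33, 7.71, 4.87 and 5.86 CPM in WT, 6.85, 7.8, 7.14 and 7.83 in MIR210-KO and 4.94, 4.26, 3.73 and 5.24 in MIR210HG-KO. In hypoxia the EGR1 values were 23, 19.3, 28 and 19.2 CPM in WT, 11.8, 8.66, 8.94 and 9.97 in MIR210-KO and 7.82, 8.46, 9.45 and 9.71 in MIR210HG-KO. Hypoxia WT again lay above all other groups, with WT 1 and 3 the higher pair, and the remaining 5 groups overlapped their neighbours. The responses were 1.92 ± 0.13 in WT (adjusted p = 6.63e-14), 0.41 ± 0.13 in MIR210-KO (adjusted p = 0.00903) and 0.96 ± 0.14 in MIR210HG-KO (adjusted p = 8.59e-07). With the long-to-short covariate they were 2.23, 0.83 and 1.44, and without the 4 libraries 1.70, 0.31 and 0.88. The MIR210-KO rise was not called without hypoxia MIR210-KO 1 (0.30, adjusted p = 0.0659). Against the WT response these differed by -1.51 ± 0.19 and -0.95 ± 0.19. In hypoxia EGR1 stood at -1.18 ± 0.12 against WT in MIR210-KO and -1.34 ± 0.12 in MIR210HG-KO. In normoxia MIR210-KO it was not called against WT (0.32 ± 0.14, adjusted p = 0.067), except without the 4 libraries (0.32, adjusted p = 0.0128), in a fit of the groups compared alone (0.31, adjusted p = 0.0173), and without normoxia WT 2 or hypoxia WT 3 (0.47 and 0.33). In normoxia MIR210HG-KO it was lower than WT by -0.39 ± 0.15 (adjusted p = 0.0444). That call was lost in 15 of the 24 fits that left out a library, with adjusted p up to 0.284 (without normoxia WT 2, -0.23), and in 6 of 10 other settings.

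ARC (chromosome 8, minus strand), which encodes an activity-regulated cytoskeletal protein best known at neuronal synapses, went in opposite directions in WT and MIR210-KO. In normoxia, ARC stood at 1.04, 1.53, 1.86 and 1.11 CPM in WT, 4.06, 3.47, 4.8 and 4.47 in MIR210-KO and 1.31, 1.88, 1.08 and 1.15 in MIR210HG-KO. In hypoxia the ARC values were 7.29, 4.53, 8.53 and 5.09 CPM in WT, 2.65, 2.13, 2.26 and 3.18 in MIR210-KO and 1.8, 1.12, 1.37 and 1.74 in MIR210HG-KO. In WT the hypoxia libraries lay above the normoxia libraries, and in MIR210-KO they lay below them, with no overlap in either genotype. The WT response was 2.20 ± 0.22 (adjusted p = 1.47e-10), or 1.80 without the 4 libraries, of which hypoxia WT 1 and 3 were the higher pair. In MIR210-KO ARC fell by 0.72 ± 0.20 on the log2 scale (adjusted p = 0.00265), and in MIR210HG-KO it stood at 0.16 ± 0.25 (adjusted p = 0.618). With the long-to-short covariate the fall in MIR210-KO was not called (-0.08, adjusted p = 0.835) and MIR210HG-KO was higher in hypoxia (0.88, adjusted p = 0.0234). The differences from the WT response, -2.92 ± 0.30 and -2.05 ± 0.33, were called with that covariate as well (-2.73 and -1.77) and without the 4 libraries (-2.55 and -1.75). In normoxia ARC was 3.05-fold higher in MIR210-KO than in WT (1.61 ± 0.23, adjusted p = 3.76e-07), with no overlap, while MIR210HG-KO stood at -0.02 ± 0.25. In hypoxia it was lower than WT by -1.32 ± 0.19 in MIR210-KO and -2.07 ± 0.21 in MIR210HG-KO. ARC lies on chromosome 8, and its mean stayed at or below 6.36 CPM in all 6 groups. In order of mean level, hypoxia WT overlapped normoxia MIR210-KO, and hypoxia MIR210HG-KO, normoxia WT and normoxia MIR210HG-KO overlapped one another at the low end.

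GADD45B (chr19:2476122-2478259, plus strand), a stress-induced activator of the p38 and JNK pathway kinase MTK1, showed the widest gap between hypoxic WT and hypoxic knockouts. In normoxia, GADD45B stood at 8.6, 10.6, 9.24 and 9.71 CPM in WT, 8.58, 9.33, 8.06 and 9.27 in MIR210-KO and 7.75, 5.84, 5.59 and 6.64 in MIR210HG-KO. In hypoxia the GADD45B values were 38.2, 30.1, 44.4 and 39.2 CPM in WT, 6.55, 6.09, 5.95 and 7.05 in MIR210-KO and 6.27, 6.57, 6.93 and 6.4 in MIR210HG-KO. Hypoxia WT lay above all other libraries, and in both knockouts the hypoxia libraries lay below normoxia WT. The WT response was 1.99 ± 0.099 (adjusted p = 4.57e-17). In MIR210-KO GADD45B fell by 0.46 ± 0.11 (adjusted p = 0.000672), a call lost with the long-to-short covariate (-0.21, adjusted p = 0.262), and in MIR210HG-KO it stood at 0.02 ± 0.11. The differences from the WT response were -2.45 ± 0.15 (adjusted p = 1.56e-13) and -1.97 ± 0.15 (adjusted p = 5.1e-11). In hypoxia the knockouts stood at -2.57 ± 0.10 and -2.53 ± 0.10 against WT, which is 0.169 and 0.173 of the WT level. In normoxia MIR210-KO was not called (-0.11 ± 0.11) and MIR210HG-KO was lower (-0.56 ± 0.11).

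IER3 (chr6:30743199-30744554, minus strand), an ERK-regulated survival factor, also rose in all 3 genotypes. In normoxia, IER3 stood at 6.2, 6.22, 5.92 and 6.26 CPM in WT, 4.2, 4.08, 5.43 and 4.71 in MIR210-KO and 6.33, 6.03, 4.92 and 6.02 in MIR210HG-KO. In hypoxia the IER3 values were 23.6, 25.2, 25.7 and 26.3 CPM in WT, 9.63, 8.66, 8.48 and 7.52 in MIR210-KO and 12.4, 11.7, 11.2 and 12.3 in MIR210HG-KO. The 3 hypoxia groups did not overlap one another, and WT was highest and MIR210-KO lowest. IER3 rose by 2.03 ± 0.089 in WT (adjusted p = 1.59e-18), 0.90 ± 0.098 in MIR210-KO and 1.03 ± 0.093 in MIR210HG-KO. The differences from WT were -1.13 ± 0.13 and -1 ± 0.13. In hypoxia IER3 stood at -1.55 ± 0.084 and -1.08 ± 0.082 against WT. In normoxia it was lower in MIR210-KO (-0.42 ± 0.10, adjusted p = 0.00111) and not called in MIR210HG-KO (-0.08 ± 0.10).

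IER2 (chr19:13150415-13154908, plus strand), a nuclear immediate-early protein, moved little with oxygen unless the long-to-short balance was a covariate. In normoxia, IER2 stood at 29.3, 30.1, 28.9 and 30.1 CPM in WT, 25.8, 25.2, 28.1 and 27.1 in MIR210-KO and 26.2, 25.5, 20.8 and 21.3 in MIR210HG-KO. In hypoxia the IER2 values were 34.3, 32.8, 41.5 and 31.4 CPM in WT, 37.8, 29.6, 34.8 and 33.3 in MIR210-KO and 26.2, 25.8, 25.3 and 27 in MIR210HG-KO. The group means ran from 23.4 CPM in normoxia MIR210HG-KO to 35.0 in hypoxia WT. The WT rise was 0.24 ± 0.081 (adjusted p = 0.0108), and it was lost without the 4 libraries (0.12, adjusted p = 0.16) and without hypoxia WT 3 alone (0.15, adjusted p = 0.0946). With the long-to-short covariate IER2 rose by 0.46 in WT (adjusted p = 2.87e-05) and by 0.64 in MIR210-KO (adjusted p = 3.86e-06). MIR210-KO rose by 0.35 ± 0.082 (adjusted p = 0.000465), and MIR210HG-KO was not called (0.15 ± 0.083, adjusted p = 0.119), though it was with the long-to-short covariate (0.49, adjusted p = 0.000736) and with upper quartile factors (0.29, adjusted p = 0.00266). MIR210HG-KO was lower than WT at both oxygen levels, by -0.34 ± 0.084 in normoxia and -0.42 ± 0.081 in hypoxia. MIR210-KO was not called against WT at either level (-0.16 ± 0.083 and -0.05 ± 0.080). The normoxia difference was called without the 4 libraries (-0.16, adjusted p = 0.0273), with the covariate (-0.19, adjusted p = 0.0174) and in a fit of the groups compared alone (-0.17, adjusted p = 0.00672).

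Between the knockouts, 7 members differed in level in normoxia, 6 in hypoxia and 0 in response to oxygen. The counts in hypoxia and in response were close to the shares of all genes called (55.1% and 3.54%). In normoxia, MIR210HG-KO was lower than MIR210-KO for 6 of 10 members and higher for 1, where 25.8% of all genes were lower and 23.4% higher (49.2% in all). The widest gaps were in ARC (-1.63 ± 0.23) and JUNB (-0.95 ± 0.12), followed by FOSB (-0.72), EGR1 (-0.71), GADD45B (-0.45) and JUN (-0.32), and IER3 was higher (0.34). In hypoxia 55.1% of all genes were called, 29% lower and 26% higher. Of the members 4 were lower, namely JUNB (-0.95 ± 0.11), ARC (-0.75 ± 0.22), IER2 (-0.38) and JUN (-0.33), and 2 were higher, IER3 (0.47 ± 0.087) and FOS (0.33 ± 0.14, adjusted p = 0.0435). The FOS call was lost with DESeq2 (0.36, adjusted p = 0.113), with upper quartile factors (0.29, adjusted p = 0.0687), and without hypoxia MIR210-KO 2, hypoxia MIR210-KO 3 or hypoxia MIR210HG-KO 4 (0.30, 0.24 and 0.25).

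For the response to oxygen itself, 0 of 10 members were called between the knockouts by edgeR (3.54% of all genes were called, 2.03% higher and 1.51% lower), and 0 by DESeq2, with 3 at an unadjusted p under 0.05: EGR1, ARC and GADD45B. The difference, MIR210HG-KO minus MIR210-KO, was -0.01 for JUN with a 95% interval of -0.20 to 0.17 and -0.01 for JUNB with -0.33 to 0.32. For FOS it was 0.04 (-0.56 to 0.64), and for IER3 0.13 (-0.15 to 0.41). The intervals for ARC (0.23 to 1.52), EGR1 (0.16 to 0.95) and GADD45B (0.16 to 0.81) did not include 0, though their adjusted p-values were 0.129, 0.118 and 0.0924. EGR1 was called without the 4 libraries (0.57, adjusted p = 0.017), and EGR1, ARC and GADD45B were called with the long-to-short covariate (0.61, 0.96 and 0.51). GADD45B was also called without normoxia MIR210HG-KO 1 (0.58, adjusted p = 0.048) and without hypoxia WT 2 (0.48, adjusted p = 0.0428).

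Genes of the same pathways were read from 7 lists holding 85 genes. Beside the counts for hypoxia in WT below, 29.6% of all genes tested were called higher and 30.7% lower (60.3% in all). In WT, hypoxia raised 8 and lowered 2 of 11 tested other AP-1 genes, with a median of 0.67 against 0 over all genes. ATF3, a stress-induced partner of JUN, rose by 3.10 ± 0.067, from 95.3 ± 6.58 to 817 ± 55 CPM (SD), and MAFF, a small MAF protein, by 2.27 ± 0.12. Of 7 EGR and NR4A genes with their NAB corepressors, 6 rose and 0 fell, led by EGR3 (1.51 ± 0.22) and EGR2 (0.99 ± 0.26). Of 12 ERK feedback genes, the inhibitors and ETS factors that report ERK activity, 10 rose and 1 fell, with a median of 0.90. Among these ETV5 rose by 2.77 ± 0.29, and SPRY4, at 0.0932 to 0.355 CPM, by 1.87 ± 0.73. Of 32 other immediate-early and early genes, 19 rose and 3 fell, with CSRNP1 at 2.23 ± 0.079 and DUSP2 at -1.89 ± 0.27. Among 4 other GADD45 and IER genes, GADD45A rose (2.07 ± 0.08) and IER5 fell (-0.52 ± 0.065).

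The genes of serum response factor itself moved less uniformly. SRF fell by 0.61 ± 0.071 in WT and its partner ELK4 rose by 0.96 ± 0.079, with 1 higher and 2 lower of 6 in that list. Of all genes tested 60.3% were called, 29.6% higher and 30.7% lower, so this list was not called more often than all genes. Of 9 tested cytoskeletal targets of SRF, 7 fell and 1 rose, with ACTB at -1.36 ± 0.07 and ACTA2 at 1.57 ± 0.14. The list median was -0.30, against 0.90 for the ERK feedback genes.

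**Figure D4:**
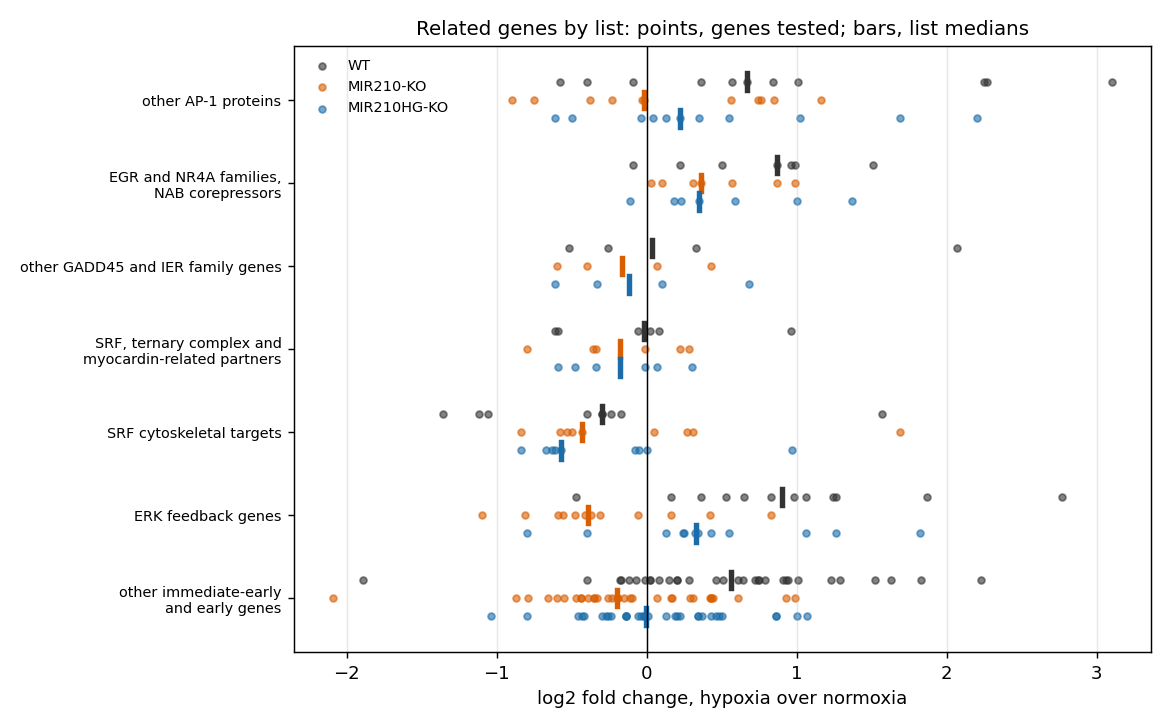
Log2 fold change of hypoxia over normoxia for the tested genes of each related list in WT, MIR210-KO and MIR210HG-KO; points are genes and thick bars list medians. The ERK feedback median is 0.90 in WT, 0.33 in MIR210HG-KO and -0.39 in MIR210-KO. The cytoskeletal SRF targets have medians below 0 in all 3 genotypes.

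In the knockouts the related lists differed from one another. In MIR210-KO, hypoxia raised 2 and lowered 6 of 12 ERK feedback genes and raised 10 and lowered 15 of 32 other immediate-early genes. In MIR210HG-KO the counts were 6 and 1, and 11 and 7. Of all genes tested, 29.3% were higher and 29.5% lower in MIR210-KO, and 25.7% and 28.3% in MIR210HG-KO. With the long-to-short covariate the genes of the 7 lists called for hypoxia in MIR210-KO went from 26 higher and 35 lower to 21 higher and 19 lower. Against the WT response, MIR210-KO was lower for 9 of 12 ERK feedback genes and higher for 0, and MIR210HG-KO lower for 3 and higher for 1. Of all genes tested, 14% were called lower and 12.5% higher in this contrast for MIR210-KO, and 12.2% and 10.2% for MIR210HG-KO. ETV5 differed by -3.34 ± 0.35 and -1.52 ± 0.44. For the other immediate-early genes 24 and 22 of 32 had a lower response than WT and 1 a higher one. CSRNP1 differed by -2.06 ± 0.11 and -1.81 ± 0.12, NFIL3 by -1.39 ± 0.10 in MIR210-KO and DUSP1 by -1.5 ± 0.12 in MIR210HG-KO. Of the other AP-1 genes 6 and 8 of 11 had a lower response than WT, with ATF3 at -1.94 ± 0.097 in MIR210-KO, MAFF at -1.53 ± 0.17 in MIR210-KO, and MAFK at -0.97 ± 0.12 in MIR210HG-KO. GADD45A differed by -1.65 ± 0.11 and -1.39 ± 0.11. The ERK feedback genes also differed in normoxia: 8 of 12 were higher in MIR210-KO than in WT and 2 lower, with a median of 0.78. ETV4 stood there at 6.44 ± 0.229 CPM against 0.362 ± 0.189 (4.17 ± 0.34), and ETV5 at 3.64 ± 0.273 against 0.392 ± 0.0697 (3.20 ± 0.29). In MIR210HG-KO 1 of 12 was higher than WT in normoxia and 5 lower, where 15.6% of all genes were higher and 19.6% lower. In hypoxia MIR210-KO, 1 of 12 was higher than WT and 2 lower (median -0.12), where 28.2% of all genes were higher and 27.7% lower. In hypoxia MIR210HG-KO, 0 were higher than WT and 9 lower (median -0.81), where 24.4% of all genes were higher and 30.2% lower. In normoxia MIR210-KO, where ARC and JUNB were high, 4 of 11 other AP-1 genes were higher and 5 lower (median -0.17), and 12 of 32 other immediate-early genes were higher and 7 lower (median 0.06), beside 22.6% higher and 21.6% lower of all genes tested.

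Likeness of pattern was measured as Pearson's r of log2(CPM + 0.5) over the 24 libraries, which share 6 groups, among 12907 protein-coding genes. Among the members themselves r was highest for JUN with EGR1 (0.956) and FOS with IER3 (0.954), and lowest for FOS with FOSL1 (0.257). The genes most like FOS were ADM (r = 0.986), which encodes adrenomedullin, HILPDA (0.981), a lipid droplet protein, and KLF10 (0.979). ADM stood at 10.9, 7.34 and 7.03 CPM in normoxia WT, MIR210-KO and MIR210HG-KO and at 42.5, 19.3 and 22 in hypoxia. Those most like JUN were the glycolytic enzyme gene HK2 (0.974), MAFF (0.973) and GADD45A (0.971), and those most like IER3 were TSPYL2 (0.982), MEX3C (0.977) and CA5B (0.976). GADD45B was most like TRIB3 (0.97), a stress-induced pseudokinase gene that stood at 128 ± 12 CPM in hypoxia WT against 20.5 ± 0.783 and 30 ± 1.66 in the hypoxic knockouts, then SEC24D (0.969) and TNFRSF12A (0.964). EGR1 was most like GEM (0.962), FOSL2 (0.96) and ALKBH5 (0.959), and FOSB like IRF2BP2 (0.953), CEBPG (0.952) and AKNA (0.952). JUNB was most like HEY2 (0.956), MAPRE3 (0.944) and WIPI1 (0.94). ARC was most like DNAJB5 (0.916), KATNA1 (0.915) and E2F5 (0.889), and DNAJB5 stood at 12.3 ± 0.754 CPM in normoxia MIR210-KO and 7.86 ± 0.95 in normoxia WT. IER2 was most like RDM1 (0.89), CREB3L1 (0.885) and MYADM (0.883). For FOSL1, whose counts are few, r reached no more than 0.688 (RELB).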

How the data were processed

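Messenger RNA of HEK293T cells was sequenced in 24 libraries, 4 in each of 6 groups. Gene counts were deposited by the authors in 2 tables, 1 per oxygen level, of 58735 genes each. Per the submitters' processing notes the genome build was GRCh38 and the tools included edgeR 3.24.3, DESeq2 1.20.0, STAR 2.6.1d and featureCounts 1.5.0-p3, while the annotation release and strand setting are not given in the sources used here. Library totals were 25556776 to 37858947 counts, and no replicate pair looked like repeat deposits of 1 library (chi-square per degree of freedom at least 2.17).

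Here both tables were joined and fitted with edgeR 4.0.16 in R 4.3.3: genes kept by filterByExpr over the 6 groups (19952), TMM factors, 1 model of 6 group means, and quasi-likelihood F tests, two-sided, for 12 comparisons, adjusted by Benjamini-Hochberg over all genes and called at 0.05. Adjusted p-values are from this test unless another tool is named. CPM uses TMM-scaled library sizes. The fit was tested on simulated data with changes of 1.3-fold to 4-fold set in hypoxia WT. For hypoxia over normoxia in WT, 80% of the 2-fold changes were found, and 6.13% of the calls were unchanged genes. For the response of MIR210-KO less that of WT, 28% of the 1.3-fold and 70% of the 2-fold changes were found, with 3.25% of the calls unchanged genes. Alternatives were DESeq2 1.42.0, scaling by RLE or by the upper quartile, a pair of other filters on low counts, only the groups compared and a replicate block. Further ones were removal of mitochondrial genes, removal of the 4 libraries taken as standing apart, and each library left out. A covariate for long against short genes (8000 bases or more against 1500 or fewer) was also fitted. The named genes were the 10 members, MIR210HG, the 2 called genes with the largest absolute log2 fold change of each related list in a comparison described, and the 3 genes most like each member. MIR210, ERCC1, HOOK2 and the marker genes were added as checks. Some marker genes are not reported here. The members, lists and the alternatives on libraries and gene length were chosen with earlier results of these data known.

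Same-numbered replicates were checked for pairing: over 60 pairs the correlation of their deviations ran from -0.328 to 0.328, with 12 over 0.1, so the numbers were not taken to pair samples.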

Additional observations from a re-analysis of the deposited data

Results flagged for a closer look

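In hypoxia MIR210HG-KO, FOS stood at 17.5 CPM in replicate 4, apart from 13.9 to 14.1 in the other 3, and JUN at 518 CPM in replicate 1, apart from 581 to 591. These were 2 of 60 groups of 4 values examined for a library far from the others, and chance marks about 1 in 20.

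The response to oxygen differed from that of WT, by the interaction test of edgeR, for 8 of 10 members in each knockout, where 26.5% (MIR210-KO) and 22.5% (MIR210HG-KO) of all genes were called. In MIR210-KO the differences (log2) were -0.97 for FOS, -1.29 for FOSB, -0.92 for JUN, -1.26 for JUNB, -1.51 for EGR1, -2.92 for ARC, -1.13 for IER3 and -2.45 for GADD45B. In MIR210HG-KO they were -0.93 for FOS, -0.78 for FOSB, -0.94 for JUN, -1.27 for JUNB, -0.95 for EGR1, -2.05 for ARC, -1 for IER3 and -1.97 for GADD45B. Both sets use the same WT libraries.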

How the results depend on the processing

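Over the 10 members and 12 comparisons, 1124 values under the 10 alternatives kept direction and side of the threshold, 15 lost and 17 gained a call, and 30 changed sign. With each library left out in turn, 2781 kept both, 32 lost and 9 gained a call, and 58 changed sign. The values that changed sign all had a fold change that was not called in the report. FOSL1 was not tested with a filter of CPM of 1 or more in 4 libraries. In normoxia between the knockouts, and for hypoxia in MIR210HG-KO, a further alternative did not test it either. DESeq2 gave FOSL1 no adjusted p for the difference between the knockouts' responses. A value without an adjusted p that kept its sign was counted as keeping its side of the threshold. Upper quartile factors moved the median of all genes to 0.178 (MIR210-KO) and 0.162 (MIR210HG-KO) for hypoxia over normoxia, and the other scalings moved no median by over 0.1. The cause of these changes was not tested.

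Sign changes (log2) by setting were as follows. DESeq2 gave ARC 0.003 in normoxia MIR210HG-KO over WT, and FOSL1 0.00022 and JUNB 0.003 for the difference in response between the knockouts. RLE factors gave 0.005, 0.00087 and 0.003 for the same 3. Upper quartile factors gave IER2 0.013 in hypoxia MIR210-KO over WT, GADD45B -0.005 in hypoxia between the knockouts, and FOSL1 0.034 and 0.016 for hypoxia in MIR210-KO and MIR210HG-KO. A minimum of 10 counts in all gave FOSL1 0.011, JUN 0.005 and JUNB 0.012 for the difference between the knockouts' responses. Without mitochondrial genes ARC in normoxia MIR210HG-KO over WT was 0.008. Without the 4 libraries it was 0.077, IER2 in hypoxia MIR210-KO over WT 0.016, hypoxia in MIR210-KO gave FOSL1 0.032 and JUNB -0.106, hypoxia in MIR210HG-KO gave FOSL1 0.049 and GADD45B -0.044, and the knockouts' responses differed by 0.017 for FOSL1 and 0.122 for JUNB. With the long-to-short covariate FOSL1 was 0.268 and 0.292 for hypoxia in the knockouts, IER2 0.027 for the response of MIR210HG-KO less that of WT, and FOSL1 0.023, JUN 0.015 and JUNB 0.052 between the knockouts' responses.

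With the replicate block, EGR1 in normoxia MIR210HG-KO over WT lost its call (-0.39, adjusted p = 0.0554 by edgeR), FOSL1 in hypoxia MIR210-KO over WT gained one (-0.90, adjusted p = 0.0343), FOSL1 and JUNB turned to 0.00097 and 0.003 between the knockouts' responses, and no other member call changed. A library correlated best with its own number in 34 of 120 checks.

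Leaving out 1 library gave these ranges where a sign changed. In normoxia they were -0.171 to 0.083 for FOSB in MIR210-KO over WT, -0.15 to 0.021 for JUNB and -0.21 to 0.164 for ARC in MIR210HG-KO over WT, and -0.383 to 0.037 for FOSL1 between the knockouts. In hypoxia they were -0.117 to 0.047 for IER2 in MIR210-KO over WT, and -0.387 to 0.054 for FOSL1 and -0.00099 to 0.091 for GADD45B between the knockouts. For hypoxia over normoxia they were -0.303 to 0.086 for FOSL1 and -0.112 to 0.091 for JUNB in MIR210-KO, and -0.341 to 0.127 for FOSL1, -0.076 to 0.095 for JUNB and -0.033 to 0.12 for GADD45B in MIR210HG-KO. For the response of MIR210HG-KO less that of WT the range was -0.139 to 0.008 for IER2, and between the knockouts' responses -0.11 to 0.233 for FOS, -0.231 to 0.246 for FOSL1, -0.052 to 0.058 for JUN and -0.089 to 0.124 for JUNB.

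Between the knockouts' responses, 707 of all genes were called, against 1083 with DESeq2, 2144 without the 4 libraries, 1514 with the covariate and 457 to 1106 with 1 library left out (457 without normoxia MIR210-KO 2, 467 without hypoxia MIR210HG-KO 4 and 1106 without normoxia MIR210HG-KO 3). The members called there went from 0 to 1 without the 4 libraries, 3 with the covariate and 0 to 1 with 1 library left out (normoxia MIR210HG-KO 1 or hypoxia WT 2). For hypoxia in MIR210HG-KO the covariate gave 8 members in place of 5 and 6613 genes in place of 10788. FOSL1, at 4 to 30 counts per library, is limited by depth.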
